A study of Mus musculus with 27 samples.

Results

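The limb identity transcription factors examined here are 8 genes, Pitx1, Tbx4, Tbx5, Shox2, Lmx1b, Tbx15, Tbx2 and Tbx3. They were taken by the gene symbol of the array's probes, with 1 probe per gene, the one with the highest mean over 27 arrays. All 8 had at least 1 probe, among 19057 genes named on the array. They were described on every array and within specimens, a primary tumour against its own metastasis.

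These proteins bind DNA and place and shape the limbs of the mouse embryo. Pitx1, a homeodomain factor, and its target Tbx4 act in the hindlimb bud, and Tbx5 acts in the forelimb bud, where it starts outgrowth through Fgf10. Lmx1b gives limb cells their dorsal identity, and Shox2 is needed for the bones closest to the trunk. Tbx15 acts in mesenchyme that forms cartilage and bone, and Tbx2 and Tbx3 are closely related repressors at the margins of the limb bud. Tbx2, Tbx3, Tbx4 and Tbx5 are also known from the mesenchyme of the developing mouse lung.

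The samples were osteosarcomas, malignant tumours of bone, from mice in which a Col2.3-Cre transgene, driven by a 2.3 kb piece of the rat Col1a1 promoter, acts in the osteoblast lineage. The Cre mice were crossed to mice with either a floxed p53 allele, which Cre removes, or a point-mutant p53 allele behind a lox-stop-lox cassette, which Cre switches on, all backcrossed to C57BL/6. The labels do not say which allele each tumour carried, nor the bone it arose in, the age of the mice, or whether each specimen is a separate animal. Total RNA was measured on 6 primaries that stayed localized, 12 that metastasized, 7 metastases to the lung, each with its own primary among the 12, and 2 to the liver. For CR-147, primary, lung and liver samples were all measured, while no primary of the liver metastasis RF-342 is used here. The groups therefore share the Cre-driven alteration of p53, and no normal bone, lung or liver was among the samples. Because specimens stand in for animals, p-values measure the spread between these specimens.

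Levels are log2 normalized intensities, which can be set against each other for 1 probe across arrays but not between genes. Detection means a detection p under 0.05, and between 42.6% and 47.5% of all probes were detected per array. Some arrays stood apart. The mean of 12 osteoblast genes was 5.80, 6.37, 6.24 and 6.62 in the primaries CR-65, RF-56, CR-45 and FC-28, and 10.2 to 11.44 in the other primaries. Among the lung metastases it was 5.48 in FC-28, with 4 of the 12 genes detected, and 10.55 to 11.42 in the others. In those 5 samples the mean of the osteoblast markers thus went against the label of osteosarcoma, though 4 to 7 of the 12 genes were detected. The background of the arrays also differed between groups: it was low (43.8 to 53.9) on all 9 metastases, on 4 localized primaries and on the metastatic primaries RF-104 and FC-28, and high (59.1 to 87.5) on the other 2 localized and 10 metastatic primaries. In tissue samples such as these, fewer cells of a type and less RNA per cell cannot be told apart.

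The factors that name hindlimb and forelimb were at background in nearly all primary tumours. The probe of Pitx1 was detected on 0 of 27 arrays, with a mean of 4.73 ± 0.10 (SD, n = 6) where tumours were localized and 4.72 ± 0.20 (SD, n = 12) where they were metastatic. The 2 probes of Lmx1b were likewise detected on 0 arrays. Tbx5 was detected on 1 array, the lung metastasis of FC-28, where it stood at 6.70, and on no primary. A second probe of Tbx5 was detected on 0 arrays. These probes say only that the transcripts did not rise above background, and the array holds no limb tissue that would show how well they work.

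Tbx4 was detected in 3 of 18 primaries. It stood at 7.24 in CR-45 and 7.04 in RF-104, both metastatic, and at 5.94 in the localized RF-191, while the other primaries lay between 4.50 and 5.17 without detection. Pitx1, which acts upstream of Tbx4 in the hindlimb, was not detected in any of these 3 tumours.

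Shox2 was the member detected in every primary. In the localized tumours it stood at 10.52 in CR-93, 7.44 in RF-44, 5.52 in CR-65, 5.66 in RF-56, 10.19 in RF-191 and 10.07 in RF-43, which is a split between 3 high tumours and 3 lower ones. In the 12 metastatic primaries the lowest level was 6.44, the median 8.71 and the highest 10.21, inside the range of the localized tumours.

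**Figure D1:**
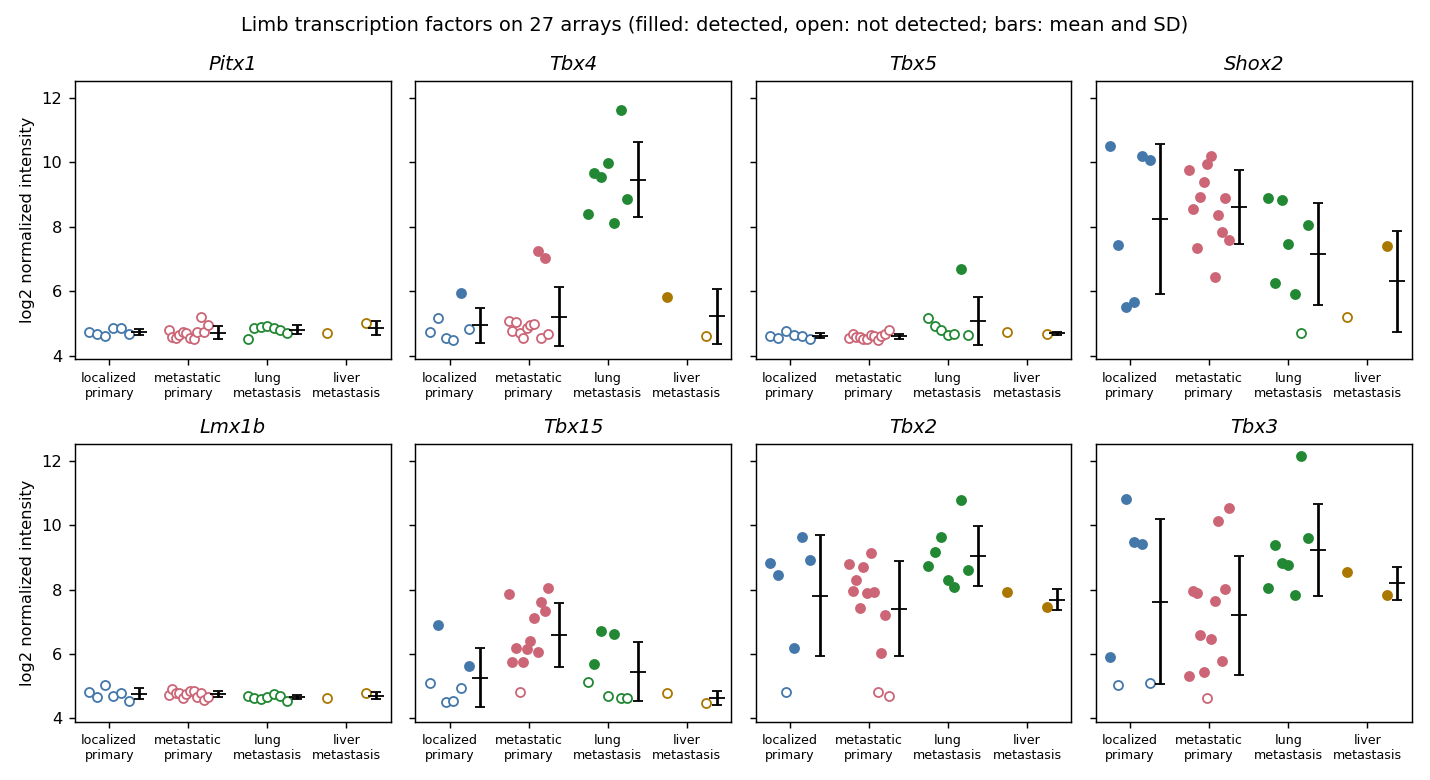
Log2 normalized level of each of the 8 genes on the 27 arrays, by group; each point is 1 array, filled where the probe was detected and open where it was not, and bars give the mean and SD. Tbx4 was high in all 7 lung metastases, Shox2 was detected in all 18 primaries, and Pitx1 and Lmx1b were open on every array.

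The first comparison set metastatic against localized primaries, to ask which genes differ between tumours that spread and those that did not. None of the limb factors passed the threshold, an adjusted p under 0.05 over all genes tested. Of the 8 genes, 4 were detected on at least 6 of the 18 arrays and were tested, and 0 were called by limma, 1 of them having an unadjusted p under 0.05. Among all 11684 genes tested, 0.00856% were called, with 340 higher and 423 lower at an unadjusted p under 0.05.

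That 1 member was Tbx15, which was detected in 11 of 12 metastatic and 2 of 6 localized primaries. Localized primaries had a mean of 5.27 ± 0.90 (SD, n = 6) and metastatic primaries one of 6.59 ± 1.00 (SD, n = 12). The localized tumours stood at 5.11 in CR-93, 6.90 in RF-44, 4.52 in CR-65, 4.55 in RF-56, 4.94 in RF-191 and 5.63 in RF-43, and the metastatic ones ran from 4.81 to 8.06 with a median of 6.30, so the groups overlapped. The difference was 1.31 on the log2 scale (SE 0.45, 95% interval 0.36 to 2.27, limma adjusted p = 0.63). It was 2.42 within the 6 arrays of low background and 1.09 within the 12 of high background, neither past the threshold. Mean levels of 18 skeletal muscle genes ran from 5.01 to 9.94 in localized and from 5.68 to 11.78 in metastatic primaries, and their part in the difference was not tested.

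The other 3 had wide intervals around 0. Shox2 differed by 0.37 (SE 0.75, 95% interval -1.2 to 1.94, limma adjusted p = 0.95). Tbx2 averaged 7.81 ± 1.87 (SD, n = 6) in localized tumours against 7.41 ± 1.48 (SD, n = 12) in metastatic ones, a difference of -0.40 (95% interval -1.97 to 1.17, limma adjusted p = 0.946). Results of Tbx2 also rest on 1 probe, as its second probe was detected on 0 arrays. Tbx3 stood at 7.62 ± 2.56 and 7.20 ± 1.85, a difference of -0.42 (95% interval -2.46 to 1.62, limma adjusted p = 0.955). The intervals span more than a log2 unit in both directions and so include a difference of that size either way. The differences of Shox2 and Tbx3 changed sign within arrays of 1 background level or without the 4 primaries of low osteoblast genes.

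Among the primaries, the 4 tumours of low osteoblast genes stood high for Tbx3 and low for Tbx2, without a clear gap to the rest. Tbx3 stood at 10.81 in CR-65, 9.46 in RF-56, 10.13 in CR-45 and 10.52 in FC-28, and between 4.63 and 9.42 in the other 14. Tbx2 stood at 4.83, 6.19, 4.81 and 4.69 in the same tumours, undetected in all but RF-56, and between 6.04 and 9.62 in the other 14. The 4 tumours were thus at the top for Tbx3, RF-56 (9.46) lying close to RF-191 (9.42), and, with RF-229 (6.04), at the bottom for Tbx2.

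Over all 18 primaries Tbx2 and Tbx3 were inversely related, with Pearson r = -0.65 (permutation p = 0.00402, adjusted p = 0.0139 over 6 pairs of members) and Spearman rho = -0.53 (permutation p = 0.0256, adjusted p = 0.0769). Without FC-28 and CR-45, the tumours farthest from the median of Tbx2, r was -0.48, and without all 4 tumours of low osteoblast genes it was 0.07, so the relation rests on those 4. It was -0.97 within the 6 arrays of low background and -0.30 within the 12 of high background. Shox2 rose with Tbx2, with r = 0.64 (permutation p = 0.00463, adjusted p = 0.0139) and rho = 0.69 (permutation p = 0.00227, adjusted p = 0.0136). This r was 0.51 without CR-65 and RF-56, 0.68 and 0.49 within low and high background, and 0.51 (adjusted p = 0.268) without the 4 tumours. Shox2 and Tbx3 gave r = -0.55 (permutation p = 0.0197, adjusted p = 0.0395) and rho = -0.47 (permutation p = 0.0532, adjusted p = 0.106). That r was -0.34 without CR-65 and RF-56, -0.62 and -0.35 within low and high background, and -0.21 without the 4. The 3 pairs with Tbx15 gave r between -0.21 and 0.03 and none passed.

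**Figure D2:**
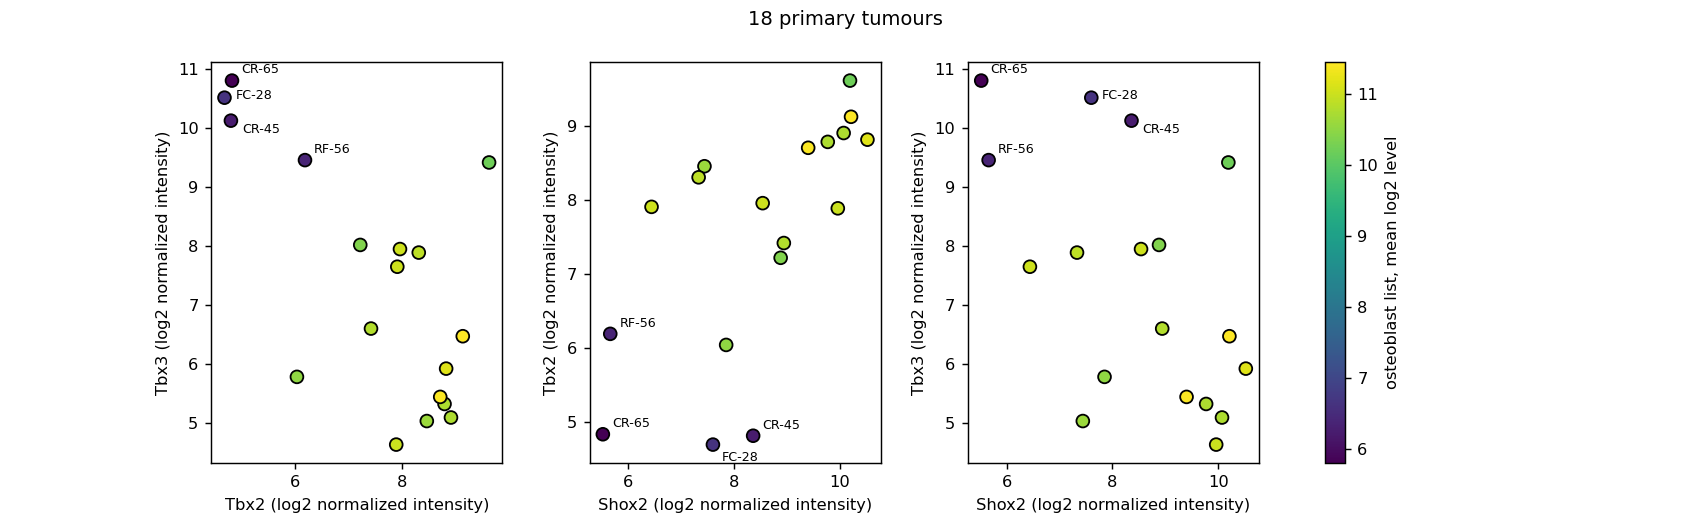
Levels of pairs of members across the 18 primaries on log2 axes, each point 1 tumour, coloured by the mean of the osteoblast list, with the 4 tumours of low osteoblast genes named. Those 4 lie at high Tbx3 and low Tbx2.

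The second comparison set each lung metastasis against the primary from which it came, over 7 pairs. Tbx4 was at background in every primary of the pairs and detected in every lung metastasis, Tbx3 was higher and Shox2 lower. Of the 8 genes, 5 were detected on at least 7 of the 14 arrays and were tested. Of these, 2 were higher, against 5.7% of all 11214 genes tested, and 1 was lower, against 2.59% (8.29% in either direction). Of the 2 higher, Tbx4 passed the detection filter through the lung arrays alone, so the count of higher members cannot be read against that share. Of the genes called in this comparison 68.7% were higher, a share that was 24.1% under median scaling, where the median of all genes shifted from -0.06 to -0.32; under that scaling Tbx4 differed by 4.40, Tbx3 by 1.62 and Shox2 by -1.31, each still called.

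Tbx4 showed the widest gap. In the primaries it stood at 5.08 in CRE-155, 5.0 in FC-279, 4.56 in RF-212, 4.77 in RF-364, 5.05 in CR-147, 4.69 in FC-28 and 4.72 in RF-379, all undetected. In the lung metastases of the same specimens, in that order, it stood at 8.41, 9.67, 9.54, 9.98, 8.13, 11.62 and 8.86. The ranges do not overlap. The difference was 4.62 on the log2 scale (SE 0.41, 95% interval 3.69 to 5.55, limma adjusted p = 0.00018), higher in 7 of 7 pairs. Since no primary of the pairs detected the gene, its mean level was at least 18.9-fold higher, a bound that leaves out the spread between pairs. Tbx4 passed the detection filter through the lung arrays alone. A second probe of Tbx4 was detected on 3 of the 7 lung arrays and was too dim to be tested here.

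Tbx4 lies on mouse chromosome 11 (GRCm38.p6, chr11:85886367-85916097), 44.4 kb from its neighbour Tbx2 (chr11:85832615-85841948), and Shox2 lies at chr3:66971723-66981771. The RefSeq promoter table of the same build held 3 of the 8 genes. The promoters of Tbx4, the member with the widest change in the lung, and of Shox2, the member that fell there, are shown from 250 bases before to 50 after the start, with TATAAA and GGGCGG in capitals on either strand. The window of Tbx4 (chr11:85896515-85896814, plus strand) begins inside the span of the gene, at an internal start, has 8 CpG dinucleotides and 59.0% GC, and holds TATAAA and GGGCGG on the reverse strand, 85 and 24 bases before the start. The window of Shox2 (chr3:66981722-66982021, minus strand) has 11 CpG dinucleotides and 53.3% GC, with TATAAA 203 and, on the reverse strand, GGGCGG 68 bases before the start.
Tbx4: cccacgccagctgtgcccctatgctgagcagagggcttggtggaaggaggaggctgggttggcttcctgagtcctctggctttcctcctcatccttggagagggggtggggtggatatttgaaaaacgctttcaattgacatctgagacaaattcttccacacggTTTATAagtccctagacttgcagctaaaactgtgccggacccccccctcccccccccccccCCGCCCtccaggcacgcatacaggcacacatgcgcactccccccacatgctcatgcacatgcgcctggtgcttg
Shox2: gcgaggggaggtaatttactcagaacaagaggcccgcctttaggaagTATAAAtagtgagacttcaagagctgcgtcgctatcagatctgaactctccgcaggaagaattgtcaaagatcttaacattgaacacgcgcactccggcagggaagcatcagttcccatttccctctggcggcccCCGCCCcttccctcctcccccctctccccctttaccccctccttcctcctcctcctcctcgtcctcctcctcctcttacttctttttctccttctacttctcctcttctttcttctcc
Searched on both strands, TATAAA is in 13.6% and GGGCGG in 35.7% of the 32851 promoters of the table. AGGTGTGA, the core letters that T-box proteins bind, is in 1.3% of them and in 0 of the 3 windows of members. The matches in capitals do not overlap each other.

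Tbx3, a repressor related to Tbx2, was higher in the lung metastases. In the primaries, in the same order of specimens, it stood at 5.32, 7.65, 5.44, 7.95, 7.89, 10.52 and 6.60, and in the lung metastases at 8.05, 9.37, 8.82, 8.75, 7.84, 12.13 and 9.59. It was higher in 6 of 7 pairs, CR-147 differing by -0.05, and the ranges of the groups overlapped. The difference was 1.88 (SE 0.40, 95% interval 0.99 to 2.77, limma adjusted p = 0.0222). Other probes of Tbx3 gave 1.21 (limma adjusted p = 0.0208) and 1.42 (limma adjusted p = 0.0163) over all probes. The call was lost without the pair of CRE-155 (adjusted p = 0.0584), FC-279 (0.0536), RF-212 (0.0636) or RF-379 (0.0555), and with no pairing in the fit (adjusted p = 0.219).

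Tbx2 was not called. It stood at 8.79, 7.91, 8.71, 7.96, 8.31, 4.69 and 7.42 in the primaries and at 8.73, 9.17, 9.64, 8.31, 8.08, 10.78 and 8.60 in the lung metastases. FC-28 moved from the lowest level among the primaries to the highest among the lung metastases, a difference of 6.09, while the other pairs differed by -0.23 to 1.26. The difference over 7 pairs was 1.36 (SE 0.67, 95% interval -0.16 to 2.88, limma adjusted p = 0.229), and 0.57 without FC-28 (limma adjusted p = 0.183). Tbx2 was called in 2 of 17 alternatives, at 6.09 with background as a covariate (limma adjusted p = 0.00112), which takes the difference from FC-28 alone, and at 4.35 within low background (limma adjusted p = 0.0416), where FC-28 is the only primary. Tbx5, the neighbour of Tbx3 at a distance of 112 kb, was detected in the lung metastasis of FC-28 alone and was not tested.

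Shox2 was lower in all 7 lung metastases than in their primaries. In the primaries it stood at 9.77, 6.44, 9.40, 8.54, 7.33, 7.60 and 8.94, and in the lung metastases at 8.88, 6.25, 8.83, 7.47, 5.92, 4.72 and 8.05, the level of FC-28 being undetected. The difference was -1.13 (SE 0.29, 95% interval -1.77 to -0.48, limma adjusted p = 0.0442), and single pairs ran from -2.87 in FC-28 to -0.19 in FC-279. The call was lost in 5 of the 7 fits that leave out 1 pair, namely CRE-155, RF-379, RF-212, CR-147 or RF-364 (adjusted p = 0.0788, 0.0782, 0.0816, 0.0924 and 0.0951), and with no pairing in the fit (adjusted p = 0.404). A second probe of Shox2 gave -0.93 (limma adjusted p = 0.108).

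Tbx15 was detected in 6 of 7 primaries and 3 of 7 lung metastases and was not called. It stood at 7.87, 7.11, 5.75, 5.75, 6.20, 8.06 and 4.81 in the primaries and at 5.12, 5.70, 6.72, 4.69, 6.63, 4.64 and 4.64 in the lung metastases, lower in 5 of 7 pairs. The difference was -1.06 (SE 0.51, 95% interval -2.2 to 0.09, limma adjusted p = 0.215). Skeletal muscle genes fell between the same samples, 12 of 14 tested, from means of 7.05 to 11.78 in the primaries to 5.11 to 6.73 in the lung metastases, and their part in the values of Tbx15 was not tested.

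**Figure D3:**
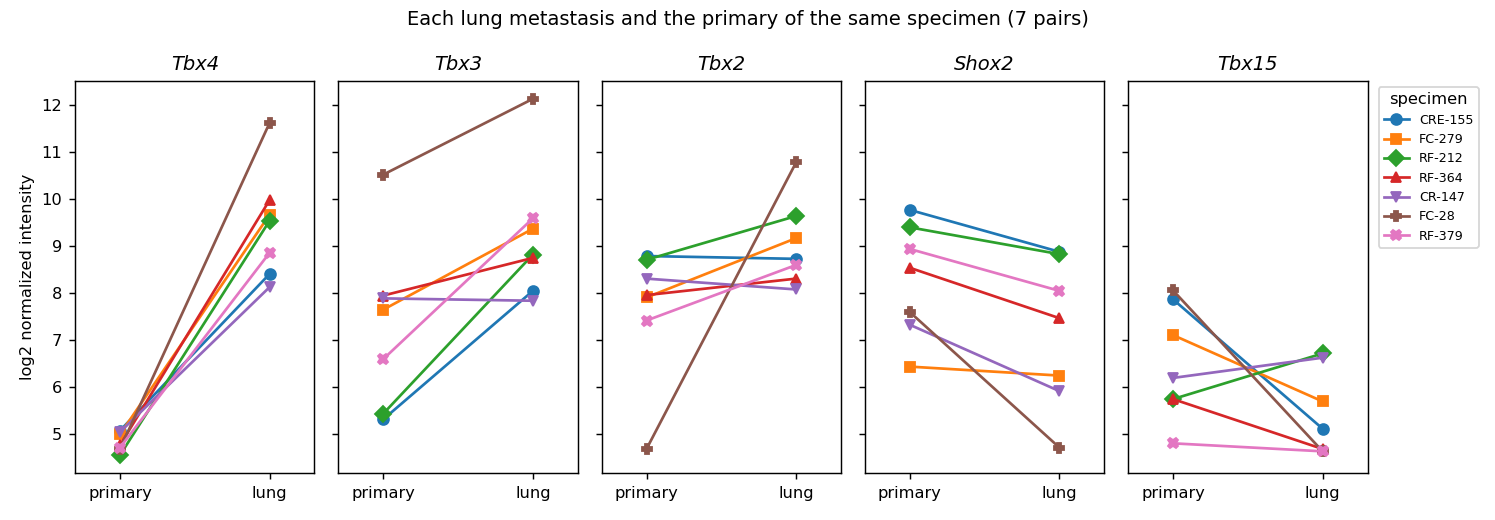
Levels of the members in each primary and its own lung metastasis on a log2 axis; each line joins the 2 samples of 1 of the 7 specimens. All 7 lines rise for Tbx4 and all 7 fall for Shox2, and for Tbx2 the line of FC-28 rises by 6.09.

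Transcripts of lung cells moved with these differences. The mean of 18 lung epithelium genes was 5.23 to 5.95 in the primaries of the pairs, with 3 to 8 of the 18 detected, and 10.83 to 12.81 in the lung metastases, with 17 or 18 detected. All 17 tested members of that list rose. Of the 18 genes, 6 were detected in 0 of the 7 primaries (Sftpb, Sftpa1, Cxcl15, Lamp3, Scgb3a1 and Sec14l3), 9 in 1 to 3 of them, among them Sftpc and Sftpd in 2 each, and Abca3, Napsa and Ager in 7 of 7. The mean of 14 lung endothelium and stroma genes went from 7.25 to 8.05 in the primaries to 8.83 to 11.01 in the lung metastases, and 7 of 13 tested rose. Hepatocyte genes differed too, with means over 16 genes of 9.60 in RF-364, 10.28 in CR-147 and 9.16 in RF-379 among the lung metastases, 5.95 to 6.94 in the other 4, and 5.28 to 6.39 in the primaries of the pairs; 3 of 9 tested rose, with a median difference of 2.94 against -0.06 over all genes. Without those 3 pairs Tbx3 differed by 2.36 (limma adjusted p = 0.0227) and Shox2 by -1.13, no longer called (limma adjusted p = 0.221). The part of the lung lists in the differences of Tbx4, Tbx3 and Shox2 between lung metastases and primaries was not tested. Background differed too, being high on 6 of the 7 primaries. In FC-28, whose primary and lung arrays both had low background, Tbx4 differed by 6.93, Tbx3 by 1.61 and Shox2 by -2.87. Set against that 1 primary of low background, the lung metastases differed by -1.3 for Tbx3, whose level there was the highest of the 7 primaries.

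Across the 7 lung metastases, Tbx3 and Tbx4 went along with the lung endothelium and stroma list by Pearson r, where no relation with the lung epithelium or osteoblast list passed. The 7 samples stood in the same order on both lung lists, so Spearman's rho of a gene was the same with each. These relations do not set the lung lists apart. The 12 relations examined, of Tbx2, Tbx3, Tbx4 and Shox2 with 3 gene lists, were chosen after the values were seen. The adjusted p-values cover the 12 relations but not that choice. Tbx3 followed the lung endothelium and stroma list with r = 0.97 (exact permutation p = 0.00198, adjusted p = 0.0238) and rho = 0.93 (exact permutation p = 0.00675, adjusted p = 0.0405). Without FC-28 and CR-147, the samples farthest from the median, this r was 0.78. Tbx4 followed the same list with r = 0.92 (exact permutation p = 0.00575, adjusted p = 0.0345) and rho = 0.82 (exact permutation p = 0.0341, adjusted p = 0.102), and r was 0.53 without those 2 samples. FC-28 had the highest level of both genes and of the list, and without it alone r was 0.87 for Tbx3 and 0.75 for Tbx4. With the same list Tbx2 gave r = 0.87 (exact permutation p = 0.0208, adjusted p = 0.0833) and Shox2 r = -0.61 (exact permutation p = 0.126, adjusted p = 0.138). With the lung epithelium list r was 0.80 for Tbx4 (exact permutation, adjusted p = 0.0952), 0.79 for Tbx3 (adjusted p = 0.115), 0.72 for Tbx2 (adjusted p = 0.131) and -0.16 for Shox2 (adjusted p = 0.749). By Spearman's rho, Tbx3 passed with that list, at 0.93 (exact permutation, adjusted p = 0.0405). With the osteoblast list r was -0.77 for Tbx4 (exact permutation, adjusted p = 0.138), -0.90 for Tbx3 (adjusted p = 0.114), -0.78 for Tbx2 (adjusted p = 0.138) and 0.71 for Shox2 (adjusted p = 0.0952). All 7 lung arrays had low background.

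**Figure D4:**
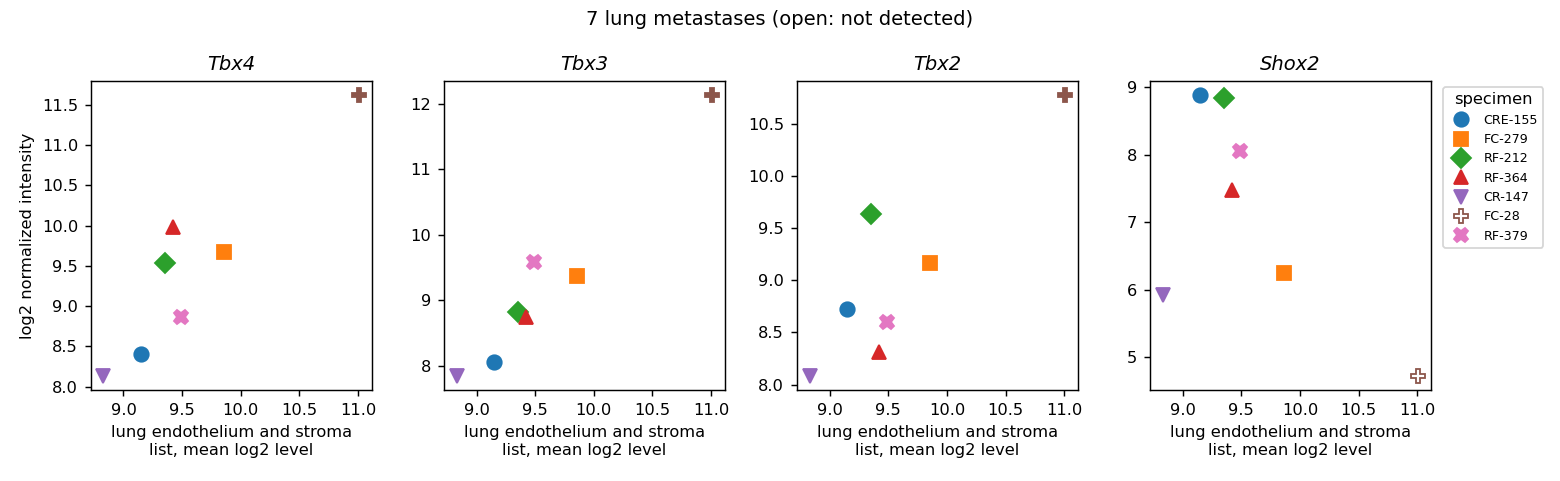
Levels of Tbx4, Tbx3, Tbx2 and Shox2 in the 7 lung metastases against the mean level of the lung endothelium and stroma list, on log2 axes, each point 1 metastasis. FC-28 lies at the far right, with the highest Tbx4, Tbx3 and Tbx2 and the lowest Shox2, which is undetected (open).

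Whether a metastasis kept the level of its primary was examined for the 3 members detected on enough arrays. Shox2 in the lung metastases followed Shox2 in the primaries with r = 0.84 (exact permutation p = 0.0222, adjusted p = 0.0667 over 3 members) and rho = 0.86 (exact permutation p = 0.0238, adjusted p = 0.0714). The adjusted values miss the threshold. The r was 0.93 without FC-279 and CRE-155, the primaries farthest from the median, and 0.95 over the 6 pairs whose primary had high background, which leaves out FC-28. Tbx2 gave r = -0.72 (exact permutation p = 0.106, adjusted p = 0.106) and rho = -0.25 (exact permutation p = 0.595, adjusted p = 0.595), and r = 0.40 without FC-28 and CRE-155. Tbx3 gave r = 0.73 (exact permutation p = 0.0776, adjusted p = 0.106) and rho = 0.29 (exact permutation p = 0.556, adjusted p = 0.595), and r = -0.31 without the same 2 pairs. For Tbx2 and Tbx3 the sign of r thus turned without those 2 pairs, and it was 0.31 and 0.07 over the 6 pairs without FC-28.

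**Figure D5:**
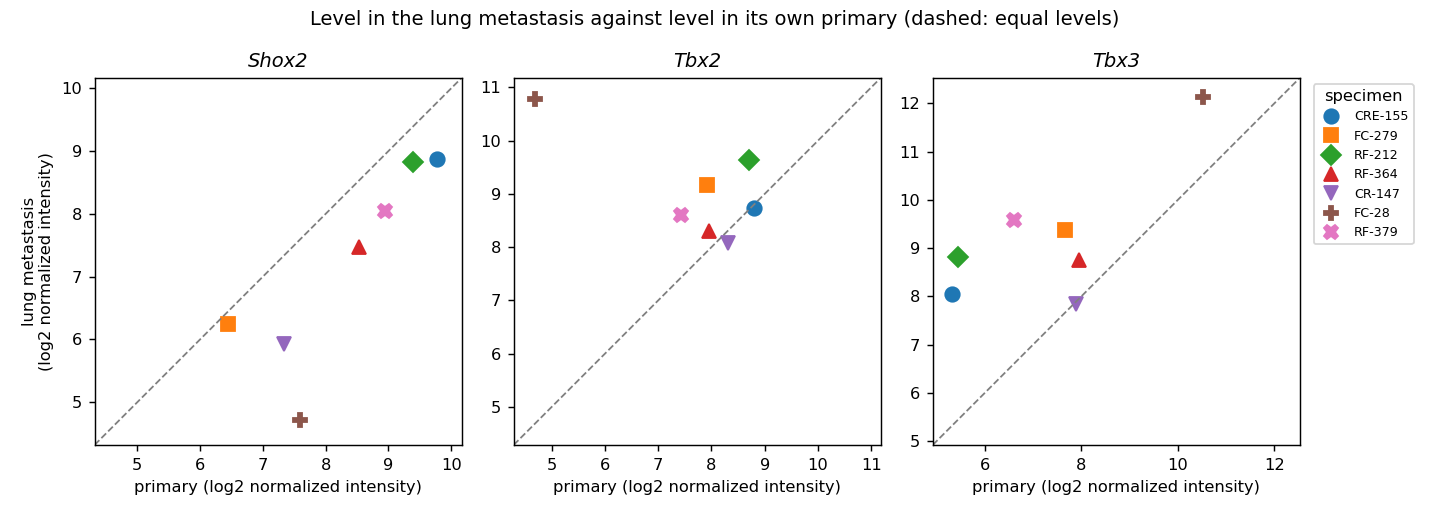
Level in the lung metastasis against level in its own primary for Shox2, Tbx2 and Tbx3 on log2 axes, each point 1 specimen, with a line of equal level. All 7 points of Shox2 lie below the line, and FC-28 lies far from the other points for Tbx2 and Tbx3.

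Tbx4 was lower in the liver than in the lung metastases. Tbx4 stood at 5.82 in the liver metastasis of CR-147, where it was detected, and at 4.62 in that of RF-342, where it was not, against 8.13 to 11.62 in the lung metastases. The fitted difference of liver from lung metastases was -4.05 (SE 0.75, 95% interval -5.6 to -2.49, limma adjusted p = 0.000628). It was the 1 member of 5 tested that was lower, against 3.25% of all 13517 genes, and 0 members were higher, against 5.76% (9.01% in either direction). In CR-147, Tbx4 stood at 5.05 in the primary, 8.13 in the lung metastasis and 5.82 in the liver metastasis. The lung epithelium list had a mean of 8.70 in that liver metastasis, with 16 of 18 genes detected, and of 6.34 in that of RF-342, with 7 detected. Its part in the value of Tbx4 was not tested.

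Against the 12 metastatic primaries, 0 of the 5 tested members were called in the liver by limma, 2 having an unadjusted p under 0.05, where 9.36% of 13517 genes were called (7.09% higher and 2.27% lower). Shox2 stood at 5.20 in CR-147, undetected, and 7.41 in RF-342, against 8.61 ± 1.15 (SD, n = 12) in the primaries. The fitted difference was -2.05 (SE 0.81, limma adjusted p = 0.133). Tbx15 was detected in 0 of 2 liver metastases, with levels of 4.79 and 4.48. Its mean level was at least 2.44-fold lower than in the primaries, and it was not called (log2 difference -2.05, SE 0.68, limma adjusted p = 0.0664). It passed with background as a covariate (-3.38, limma adjusted p = 0.0133) and within arrays of low background (-3.08, limma adjusted p = 0.0365). Both settings rest mainly on the 2 metastatic primaries of low background, RF-104 and FC-28, where Tbx15 was high (7.32 and 8.06).

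Tbx2 and Tbx3 were detected in both liver metastases. Tbx2 stood at 7.91 and 7.45, a difference from the primaries of 0.30 (95% interval -1.67 to 2.27, limma adjusted p = 0.89), and Tbx3 at 8.55 and 7.83, a difference of 1.13 (95% interval -1.08 to 3.34, limma adjusted p = 0.582). The 2 liver metastases were rich in liver transcripts, with a mean of 13.04 and 13.11 over 16 hepatocyte genes. Both liver comparisons share the same 2 liver arrays.

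Few other genes of limb patterning were called in any comparison. Of 39 such genes, 36 were on the array, and 24 were tested between metastatic and localized primaries, 0 being called, where 0.00856% of all genes were. Between lung metastases and their primaries 2 of 24 tested rose and 0 fell, where 5.7% of all genes rose and 2.59% fell (8.29% in either direction), with a median difference of 0.08 against -0.06 over all genes. They were Shh, the signal of the posterior limb bud, and Wnt7a, the signal of the dorsal ectoderm of the limb that induces Lmx1b. Shh stood at 4.65 ± 0.35 (SD, n = 7) in the primaries, detected in 1, and at 6.98 ± 0.94 (SD, n = 7) in the lung metastases, detected in 7. Its difference was 2.33 (SE 0.30, limma adjusted p = 0.00174). Wnt7a went from 4.55 ± 0.09, detected in 0 of 7, to 7.33 ± 1.40, detected in 7 of 7. Its mean level was at least 4.33-fold higher (limma adjusted p = 0.00677). Wnt7a passed the detection filter through the lung arrays alone, and Shh through them and 1 primary. The count of genes that rose therefore cannot be read against the share over all genes. The part of the lung lists in the differences of Shh and Wnt7a was not tested. Both were lower in the liver than in the lung metastases, the 2 genes called of 31 tested, where 3.25% of all genes were lower. Without the lung arrays neither would have passed the filter there, so this count cannot be read against that share. Mean levels were lower by at least 3.2-fold for Shh (limma adjusted p = 0.00201) and at least 4.08-fold for Wnt7a (limma adjusted p = 0.0123). Lmx1b, the limb target of Wnt7a, was detected on no array.

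Some genes that work beside these factors along the body axis were detected in all primaries. Of 13 Hox and other partners of the hindlimb and forelimb programme, 7 were tested in each of the first 2 comparisons. Of these 0 were called, where 0.00856% and 8.29% of all genes were, too few genes to set against those shares. In the lung comparison their median difference was -0.81, against -0.06 over all genes. Hoxc10, a hindlimb-level Hox gene, was detected in all primaries, at 8.06 in localized and 7.25 in metastatic tumours on average. Hoxc9, which in the mouse embryo represses Tbx5 behind the forelimb field, averaged 9.97 ± 0.84 (SD, n = 6) in localized tumours against 10.34 ± 0.85 (SD, n = 12) in metastatic ones, detected in all. In the lung metastases Hoxc9 differed from the primaries by -2.06 (SE 0.76, limma adjusted p = 0.129). Isl1, which precedes hindlimb outgrowth, was detected in 3 of 12 metastatic and 2 of 6 localized primaries. Of 11 other T-box genes on the array 3 were tested in the first 2 comparisons and 0 were called, again too few genes to set against those shares.

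Of the genes next to the members on the chromosome 13 were on the array and 10 were tested. In the lung comparison 0 were called, near the 8.29% called over all genes, with a median of -0.25 against -0.06 over all genes. Bcas3 and Brip1, beside Tbx2 and Tbx4, differed by -0.28 (limma adjusted p = 0.447) and -0.38 (limma adjusted p = 0.45), and Med13l and Rbm19, beside Tbx3 and Tbx5, by -0.28 (limma adjusted p = 0.427) and -0.66 (limma adjusted p = 0.0985). Lxn, a neighbour of Shox2 that encodes a carboxypeptidase inhibitor, was lower in the liver than in metastatic primaries, with a log2 difference of -1.63 (limma adjusted p = 0.000203).

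As a description, the genes whose levels ran most like each member over the 18 primaries were found among 8349 genes detected in all of them (8348 for Shox2). For Shox2 these were Zfp263, Htra3 and Dido1, with Pearson r of 0.80, 0.78 and 0.77. For Tbx2 they were Htra3, Scand1 and Tmem42, with r of 0.94, 0.91 and 0.90. For Tbx3 they were Zeb1, a repressor known for its role in the epithelial to mesenchymal transition, Sin3a and Rgma, with r of 0.86, 0.84 and 0.84. For Tbx15 they were Man1a2, Dbt and Mfn1, with r of 0.73, 0.72 and 0.71. The levels of Tbx2 and Tbx3 include the 4 tumours of low osteoblast genes.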

How the data were processed

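Each of 27 tissue samples, in the 4 groups of the labels, was hybridised to a single-colour Illumina bead array. The bead files deposited by the authors hold, per the file headers, an average signal per probe, which is a linear intensity with no normalization, and a detection score, a fraction from 0 to 1, of which 1 minus the value served as the detection p. The series matrix deposited by the authors gives log2 values, with a median of 5.9 on every array; it differed by at most 0.606 from quantile-normalized log2 signals and was used as an alternative. Its scale is log2 and it showed no centring of genes. BeadStudio was used, per the submitters' processing notes.

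Each of 45281 probes was tied to the platform annotation through identical ranks of the bead signals and the matrix values on all arrays. Of these, 34885 had 1 gene symbol, 18 several and 10378 none; 34807 Entrez identifiers matched RefSeq (GRCm38.p6). The array's own build is not given in the sources used here.

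Intensities were corrected and quantile normalized with neqc of limma 3.58.1 (R 4.3.3, offset 16). Differences were tested two-sided with limma (lmFit, eBayes) and adjusted by Benjamini-Hochberg over all genes tested, at a threshold of 0.05; genes had to be detected on 6, 7 or 2 arrays. Lung pairs carried the specimen as a block, and the liver fits as a random block (consensus correlation 0.355). Samples of 1 specimen deviated together, with r from 0.23 to 0.60, and 5 of 7 lung metastases correlated best with their own primary. FC-28 (r = 0.23) correlated best with the primary of RF-104, and RF-212 (r = 0.29) with that of RF-89. Where a group detected a gene on no array, a fold is a bound, from the lowest detected signal per array. It bounds the difference of mean levels in these samples and leaves out the spread between specimens. No 2 arrays were duplicates (highest correlation 0.978), and the number of arrays limits precision.

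Members, gene lists and tests were chosen with earlier results of these data known. Named genes are the 8 members, called genes of the lists and, for members detected in at least 9 primaries, the 3 genes most like each. Hox genes, chromosomal neighbours and T-box genes named without a call were chosen after their values were seen. On data simulated for 11684 genes, the comparison of primaries recovered 44 of 100 genes changed by 1 log2 unit and 97 of 100 changed by 3, with 16 false calls; that of lung pairs, for 11214 genes, recovered 57 and 99, with 8 false calls. Alternatives were other background corrections, scalings, filters, probes, weights, blocks and left-out samples.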

Additional observations from a re-analysis of the deposited data

Results flagged for a closer look

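Of 17 groups of member values examined, 4 had 1 sample far from the others, and in each of them it was FC-28. Chance marks about 1 in 20 groups of independent, normally distributed values. The groups here share arrays, and Tbx5 was undetected on 6 of the 7 lung arrays, so the count cannot be set against that rate. The level of Tbx5 in its lung metastasis, 6.7, was the highest of the 7, with a gap to the next of 0.738 of the whole range. Its difference of lung from primary for Tbx5 was 1.91 (gap 0.651 of the range) and for Tbx2 6.09 (gap 0.764 of the range). The level of Tbx3 in the lung metastasis of FC-28 was 12.13, with a gap of 0.592 of the range. The critical value for 7 samples was 0.568. That lung metastasis also had the lowest mean of osteoblast genes (5.48) and the highest means of lung epithelium (12.81) and of lung endothelium and stroma genes (11.01) among the 7.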

How the results depend on the processing

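Of 365 member results recomputed under an alternative, 318 kept direction and side of the threshold, 20 lost a call, 8 gained one and 19 turned sign; where no value shows a cause, the cause was not tested. In the lung, Tbx4 kept its call in 16 of 17 alternatives, losing it within low background (4.77, limma adjusted p = 0.0686), and in the liver against the lung it kept it in 11 of 11.

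Between primaries, Shox2 was -0.06 with array weights, -0.38 with background as a covariate, -1.46 within high background and -0.82 without the 4 tumours of low osteoblast genes, and Tbx3 was 0.39 with the covariate, 1.47 within low background and 0.21 without the 4. Leaving out 1 tumour gave -0.17 to 0.83 for Shox2 and -0.94 to 0.22 for Tbx3, 0 to 1 genes higher and 0 to 1 lower. Genes called lower were 0 within low background, without the 4 tumours and with the specimen prefix as a covariate; high background gave 1 higher and 2 lower.

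In the lung comparison, genes called lower were 2022 with median scaling and 452 with array weights. The background covariate, which there takes the difference from FC-28 alone, gave 1166 higher and 1219 lower. Low background, with FC-28 as its only primary, gave 119 higher and 64 lower, 1 member higher and 0 lower, and Tbx3 at -1.3. Members called were 1 higher and 0 lower without a detection filter, and 0 lower with the mean of all probes. The fit with no replicate block called 85 genes lower, 1 member higher and 0 lower. Leaving out 1 pair gave 389 to 614 genes higher and 85 to 245 lower, with 1 to 2 members higher and 0 to 1 lower. Without the 3 pairs with hepatocyte transcripts (CR-147, RF-364 and RF-379) there were 373 higher and 51 lower genes and 0 members lower.

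For liver against primaries, genes called lower were 476 with median scaling (65.2% of calls higher, against 75.7%), 500 with array weights and 161 with the background covariate. Low background gave 596 higher and 126 lower, and leaving out 1 liver metastasis 576 to 852 higher and 68 to 94 lower. One member, Tbx15, was called lower with the covariate and within low background (1 each), settings that rest mainly on the primaries RF-104 and FC-28. Tbx3 was -0.49 and -1.03 under those settings, and Tbx4 was -0.60 within low background and -0.59 to 1.04 with 1 liver metastasis left out. For liver against lung, genes lower were 711 with array weights and 275 within low background. Leaving out 1 liver metastasis gave 454 to 693 higher, 145 to 150 lower, and Shox2 from -1.38 to 0.14. The replicate block changed no call of a member in the liver comparisons.

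For Shox2 kept from primary to lung, r was 0.88 without background correction and 0.90 on the series matrix, both then past the threshold, and 0.79 to 0.95 with 1 pair left out; for Tbx2 it was -0.89 to 0.31, turning sign without FC-28. Without the 4 tumours of low osteoblast genes, r was -0.44 for Shox2 and Tbx15, 0.51 for Shox2 and Tbx2, -0.21 for Shox2 and Tbx3 and 0.07 for Tbx2 and Tbx3. Genes below background on an array, Pitx1, Lmx1b and Tbx5 above all, could not be compared.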
